A study of Mus musculus with 4 samples.

Results

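The ABC (ATP-binding cassette) transporter family was compared between 2 related mouse ovarian cancer cell lines, GO2 and ID8G. Members were the array probes whose RefSeq accession leads to a gene symbol of the form Abc followed by a subfamily letter from a to g and a number, with 1 such gene left out by the rule. The rule found 49 genes on 79 probes, among 45616 gene names on the array, and it used no measured value. RNA was measured on 4 single-color Agilent mouse arrays, 2 from ID8G cells and 2 from GO2 cells. ID8G cells are ID8 cells, a line of transformed mouse ovarian surface epithelium, that carry GFP from a retroviral vector (pMXs-IRES-GFP) and were sorted for it. GO2 cells descend from ID8G cells through intraperitoneal injection into female C57BL/6J mice, sorting of GFP+ CD45- cells from omental tumors, and a repeat of both steps. Both lines carry GFP. The paper grew ID8 cells in DMEM with serum, insulin, transferrin and selenite and names no separate medium for GO2 cells. RNA was extracted from cells of the 2 lines, so the arrays do not compare whole tumors. GO2 is a single line, and the labels do not say whether its arrays, or those of ID8G, came from separate cultures. The p-values below measure only the spread between these arrays.

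ABC proteins share a cytosolic domain that binds and hydrolyzes ATP, and most use it to move a substrate across a membrane. Subfamily A and part of subfamily G carry sterols and phospholipids, several members of B, C and G expel drugs and conjugates and are known in ovarian cancer for resistance to chemotherapy, and others serve peroxisomes, mitochondria or peptide transport. Members of E and F have no membrane domain and act in translation. The question put to the arrays was which of these groups differed between the cells selected in the omentum and their parents.

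Each level below is the log2 intensity of a probe after subtraction of its array's 75th percentile, so a level of 0 is a probe as bright as that percentile, and a negative level is a dimmer one. A level compares arrays for 1 probe and is not read as the amount of 1 gene against another. Levels were set side by side across genes only to sum markers and to choose probes and genes by brightness. Such a sum follows its brightest probes. Differences are GO2 minus ID8G on the log2 scale, with the standard error (SE) and the Benjamini-Hochberg adjusted p of a limma fit over 28368 probes. A gene was called higher or lower where the adjusted p was below 0.05 and the levels differed by at least 2-fold (1 on the log2 scale). Where every probe of a gene was too dim to be marked well above background in 1 of the lines, its fold is given as a lower bound, taken against the dimmest signal that passed on each array or the probe's own signal if that was higher. With 2 arrays against 2, an exact permutation test of a single gene cannot give a two-sided p below 0.333, so the limma p-values rest on a spread shared across genes.

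Array measures were close in both lines. The 75th percentile of intensity lay between 627 and 675, between 27502 and 28841 probes were above background on each array, no spot was saturated, and replicate levels correlated at 0.997 across probes in each line. Of 6 ovarian surface and epithelial markers, Krt8, Krt18, Krt19 and Cdh1 were above background in both lines, whereas Epcam and Krt7 were above it on no array. Krt19 was called lower in GO2 (-1.65, adjusted p = 0.000340, limma). Krt18 (-0.81, adjusted p = 0.00162), Krt8 (-0.55, adjusted p = 0.00438) and Cdh1 (-0.34, adjusted p = 0.0600) were lower without a call. The summed level of the 6 epithelial markers was 543 to 561 times the 75th percentile in ID8G and 284 to 286 in GO2. Of 5 mesothelial markers, Upk3b was called higher in GO2 (1.08, adjusted p = 0.000787, limma). Msln was lower without a call (-0.82, adjusted p = 0.00176), Wt1 differed by -0.10 and Lrrn4 by -0.04. Calb2 was above background on no array, and the summed level was 102 to 113 in ID8G and 89.6 to 91.7 in GO2. Of 7 fibroblast markers, Col1a1, Col1a2, Pdgfra and Pdgfrb were called higher in GO2, with the largest difference in Col1a2 (7.49). Dcn was lower without a call (-0.63, adjusted p = 0.00309, limma), and Lum and Thy1 were above background on no array. The summed level was 67.4 to 70.1 in ID8G and 127 to 130 in GO2. In ID8G it follows Dcn, the brightest there at 6.07 and 6.01. Of 7 macrophage markers, Ptprc, Adgre1 and Mrc1 were above background on no array, and Cd14, Cd68, Csf1r and Itgam were above it in both lines. Cd14 was lower in GO2 without a call (-0.69, adjusted p = 0.00210, limma), and Cd68, Csf1r and Itgam differed by 0.19, 0.22 and -0.13. The summed level was 22.3 to 25.1 in ID8G and 21.7 to 21.8 in GO2. It follows Itgam, the brightest, at 4.18 and 4.39 in ID8G and 4.13 and 4.17 in GO2. A second Itgam probe was above background on 1 GO2 array only. Of 5 adipocyte markers, Fabp4 was called lower in GO2 (at least 6.28-fold, adjusted p = 0.000851, limma), Lep differed by -0.04, Adipoq, Plin1 and Cfd were above background on no array, and the summed level was 0.862 to 0.914 in ID8G and 0.501 to 0.530 in GO2. Above background on no array were also 4 of 5 endothelial and 4 of 5 lymphocyte markers. The part of the epithelial, mesothelial, fibroblast, macrophage and adipocyte marker shifts in the differences below was not tested. Fewer cells of a kind cannot be told apart from less RNA per cell.

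The members that passed both criteria lay mostly among the family's lipid transporters, a group with 10 of the 30 tested genes. Of the 49 genes, 30 were tested, since both ID8G arrays or both GO2 arrays saw 1 of their probes above background. Abca1 and Abcb9 were called higher in GO2 and Abca5, Abca8b and Abcg4 lower, that is 2 of 30 higher, where 4.78% of all tested genes were called higher, and 3 of 30 lower, where 3.5% were called lower. The median difference of the 30 genes was -0.035, with 14 above 0 and 16 below, and that of all 22075 tested genes was -0.020. At an adjusted p below 0.05 with no requirement on size, 7 members were higher and 10 lower, against 17.5% and 18.9% of all tested genes. Several exporters are therefore described below as lower or higher by less than 2-fold, with the values and without a call. The shares of 4.78% and 3.5% also apply to each smaller group and list below, where few or no calls are not read as a result. When the arrays were scaled to their spike-in controls, the median of all genes moved to -0.228 and that of the family to -0.243, the calls became 1 higher and 4 lower, and differences under that scaling are read against the moved median.

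**Figure D1:**
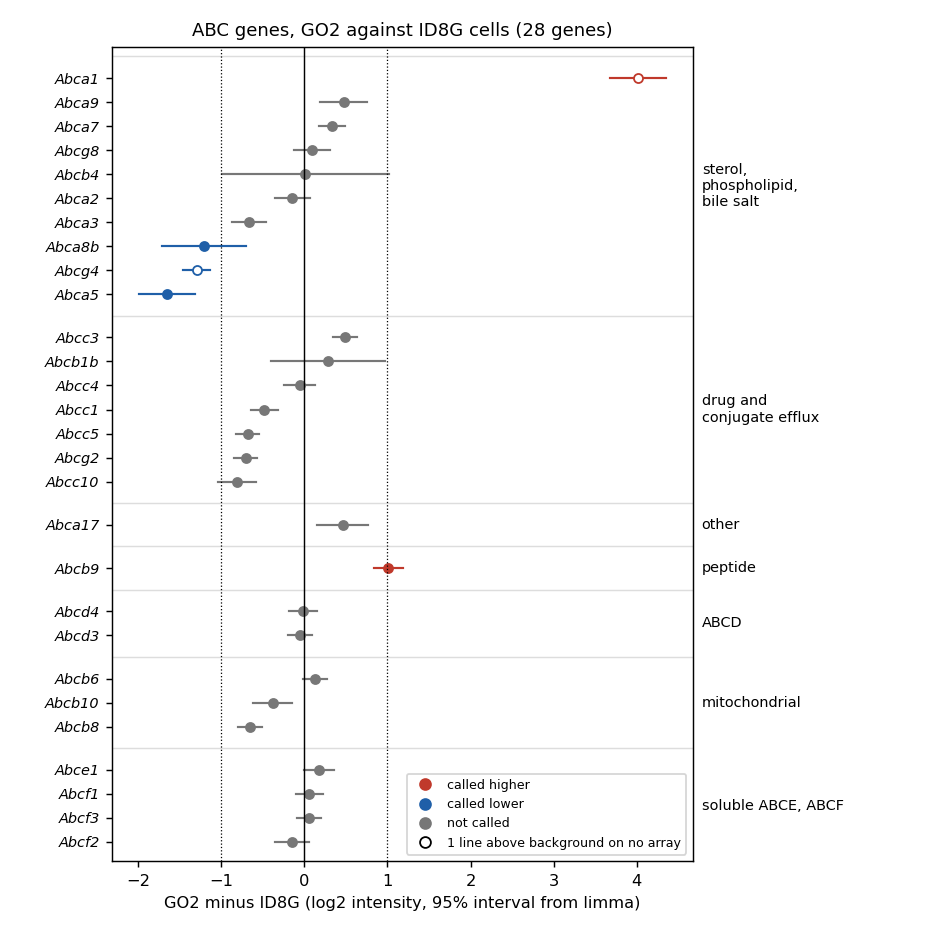
Differences of 28 of the 30 tested ABC genes between GO2 and ID8G cells on the log2 scale, grouped by role, with the 95% interval from limma and dotted lines at 2-fold. Abca1 stands at 4.01, Abca5 at -1.65, and the drug and conjugate exporters lie between -0.81 and 0.49; open points mark genes with 1 line above background on no array.

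Of the 5 called genes, 4 have a promoter in the RefSeq table of build GRCm38.p6, and the 250 bases before the start of each are shown because these are the members that differed most. Capitals mark matches, on either strand, to the E-box CACGTG, the GC box GGGCGG, the TATA box TATAAA and a direct repeat of the half-site NGGTNA spaced by 4 bases. The last is a relaxed form of the repeat that liver X receptors (LXR) bind with RXR, and its letters were chosen after the Abca1 sequence was seen.
Abca1 promoter, chr4:53159896-53160145, minus strand: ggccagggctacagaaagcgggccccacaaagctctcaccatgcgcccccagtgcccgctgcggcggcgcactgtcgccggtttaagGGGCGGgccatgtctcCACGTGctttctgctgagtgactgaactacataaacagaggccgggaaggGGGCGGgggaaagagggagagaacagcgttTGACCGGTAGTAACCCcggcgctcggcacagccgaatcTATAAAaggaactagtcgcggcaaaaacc
Abcb9 promoter, chr5:124095799-124096048, minus strand: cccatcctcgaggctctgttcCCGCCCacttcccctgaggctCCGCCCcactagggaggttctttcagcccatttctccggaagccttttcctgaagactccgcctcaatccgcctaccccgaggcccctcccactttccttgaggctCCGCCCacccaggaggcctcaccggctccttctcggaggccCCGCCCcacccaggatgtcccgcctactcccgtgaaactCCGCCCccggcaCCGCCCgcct
Abca5 promoter, chr11:110337717-110337966, minus strand: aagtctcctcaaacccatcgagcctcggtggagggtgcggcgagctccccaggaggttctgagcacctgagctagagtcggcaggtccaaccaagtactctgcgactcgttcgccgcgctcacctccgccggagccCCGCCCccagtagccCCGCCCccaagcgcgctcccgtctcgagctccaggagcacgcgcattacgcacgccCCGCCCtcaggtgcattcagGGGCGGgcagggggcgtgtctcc
Abca8b promoter, chr11:109995846-109996095, minus strand: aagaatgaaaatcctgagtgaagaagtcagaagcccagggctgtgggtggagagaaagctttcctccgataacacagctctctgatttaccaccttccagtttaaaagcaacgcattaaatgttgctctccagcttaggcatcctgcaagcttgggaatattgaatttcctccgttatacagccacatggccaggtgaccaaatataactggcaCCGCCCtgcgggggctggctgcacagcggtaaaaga
The Abca1 window held 1 E-box, 2 GC boxes, 1 TATA box and 1 spaced repeat, the run of capitals that starts at base -67 before the transcription start. Among 32536 distinct mouse promoter windows of that length, 0.621% held such a repeat, 6.04% an E-box, 12.3% a TATA box and 33.0% a GC box. Abcb9 had 6 GC boxes, Abca5 had 4 and Abca8b had 1, and none of these 3 windows held a match to the other motifs. A match describes the letters only, and no binding was measured.

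Abca1 showed the largest difference in the family. It encodes the exporter that loads cholesterol and phospholipid onto apolipoprotein A-I, the first step of high-density lipoprotein formation. Its level was -5.85 and -6.12 on the ID8G arrays, neither above background, and -1.89 and -2.06 on the GO2 arrays, both above it. The groups lay far apart, and GO2 was at least 3.26-fold higher. The fitted difference was 4.01 (SE 0.12, adjusted p = 0.000325, limma), a value that rests on ID8G signals below background. It was called in all 16 alternative limma settings that could test it, with differences of 1.70 to 4.15. A second Abca1 probe was above background on no array, so the call stands on 1 probe.

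No other sterol or phospholipid transporter was called higher. Abcg1, which passes cholesterol on to mature lipoprotein particles, was above background on no array, and neither was Abcg5, the partner with which Abcg8 exports sterols in liver and gut. Abcg4, a relative of Abcg1 best known from brain and blood cells, fell. Its level was -2.43 and -2.50 in ID8G and -3.74 and -3.78 in GO2, where neither array was above background. The groups did not overlap, and GO2 was at least 2.45-fold lower (difference -1.29, SE 0.06, adjusted p = 0.000640, limma). With normexp background correction the difference of Abcg4 was -0.56 and no longer reached 2-fold. Abcg8 differed by 0.09 (adjusted p = 0.392, limma).

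Within a run of Abca genes on chromosome 11, 2 members also fell. In the RefSeq gene order, Abca8b, Abca8a, Abca9, Abca6 and Abca5 follow each other with no other protein-coding gene between them, and little is settled about their substrates beyond lipids. Abca5, a protein of late endosomes and lysosomes, had levels of -1.71 and -1.62 in ID8G and -3.16 and -3.47 in GO2. All 4 arrays were above background, and both GO2 arrays were below both ID8G arrays. The fall was 3.14-fold (difference -1.65, SE 0.12, adjusted p = 0.00226, limma), and it was called in 16 of 17 alternative limma settings, the exception being normexp background correction at -0.996, just short of 2-fold. A second Abca5 probe was above background on no array.

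Abca8b, at the other end of that run, is known for a part in cholesterol efflux and lipoprotein levels. It measured -1.78 and -1.58 in ID8G and -2.65 and -3.12 in GO2, so its GO2 arrays were lower but also spread more than those of the other called genes. The fall was 2.31-fold (difference -1.21, SE 0.19, adjusted p = 0.0135, limma). This call depended on single arrays: without GO2 replicate 2 the difference was -0.97, and without ID8G replicate 1 or 2 the adjusted p was 0.0527 or 0.0588. It was also lost with no filter on dim probes (adjusted p = 0.0716) and with normexp correction (-0.62). Between these genes, Abca9 measured -1.99 and -2.05 in ID8G and -1.41 and -1.66 in GO2. Its difference of 0.48 in the opposite direction was not called (SE 0.10, adjusted p = 0.0312, limma). It ran from 0.27 to 0.60 over the alternative limma settings. With no filter on dim probes or with spike-in scaling, the adjusted p of Abca9 was not below 0.05. Abca8a and Abca6 were above background on no array. The run therefore held 2 genes that fell, 1 that lay higher by less than 2-fold and 2 that gave no signal.

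**Figure D2:**
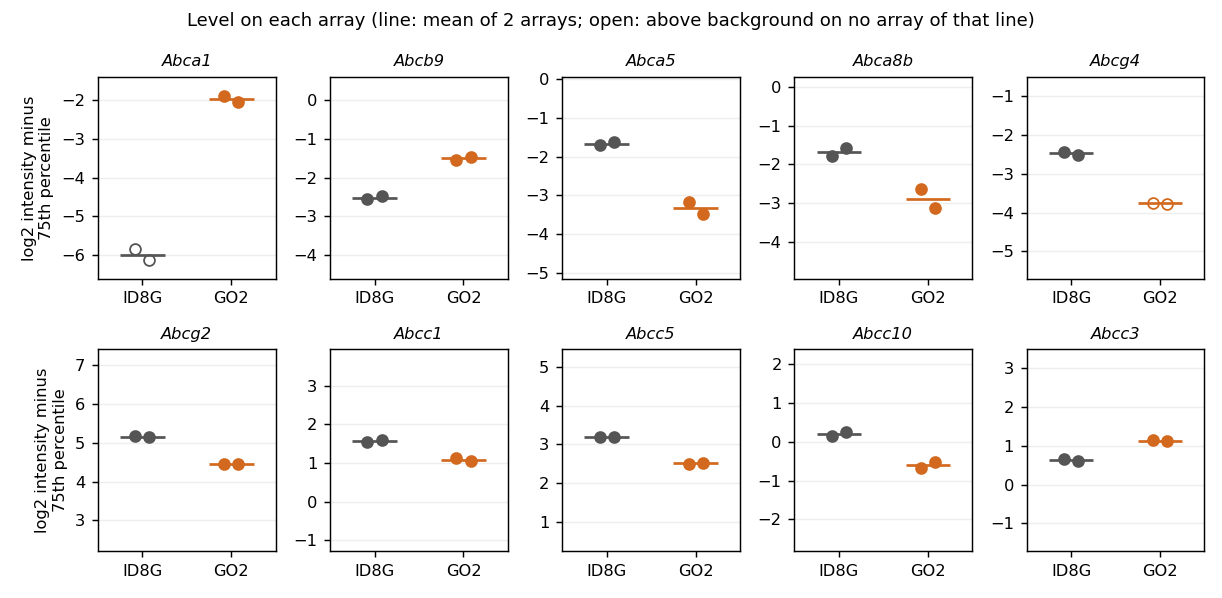
Level of the 5 called genes and of 5 drug and conjugate exporters on each array (log2 intensity after subtraction of the array's 75th percentile), with every panel spanning the same number of log2 units and lines at the mean of 2 arrays. GO2 and ID8G points are apart in each panel, by 4.01 for Abca1 and by 0.48 to 0.81 for the exporters in the lower row.

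Beside Abca9, 5 other lipid transporters without a call could be tested. Abca3, which fills surfactant granules with phospholipid in the lung, measured 3.14 and 3.09 in ID8G and 2.37 and 2.53 in GO2. It was lower in GO2 without reaching 2-fold (-0.67, SE 0.08, adjusted p = 0.00645, limma). Abca7, a close relative of Abca1, lay higher by 0.33 (SE 0.06, adjusted p = 0.0170, limma) on its brightest probe and by 0.36 on its second. With no filter on dim probes or with spike-in scaling, the adjusted p of Abca7 was not below 0.05. Abca2, a lysosomal sterol transporter of the nervous system, differed by -0.14 (adjusted p = 0.222). Abcb4, the phosphatidylcholine transporter of bile, differed by 0.01, but its interval from -0.99 to 1.02 leaves a 2-fold difference in the higher direction within reach. Abca4, Abca12, Abca13 and the bile salt exporter Abcb11 were above background on no array. In the whole lipid group, 10 of 18 genes were tested, 1 rose, 3 fell and 6 were not called, with a median difference of -0.065. Of all tested genes, 4.78% were called higher and 3.5% lower.

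None of the drug and conjugate exporters was called, and most of those detected were somewhat lower in GO2. Of 9 genes in the group 7 were tested, with a median difference of -0.48. Over all tested genes, 4.78% were called higher and 3.5% lower, so no call among 7 genes is not read as a trait of the group. Abcb1a, the mouse gene for P-glycoprotein together with Abcb1b, was above background on no array. Abcb1b measured -3.08 and -2.47 in ID8G and -2.32 and -2.65 in GO2. Its groups overlapped, and the interval of the difference, from -0.40 to 0.97, stopped just short of 2-fold higher (adjusted p = 0.415, limma). Abcc2, an exporter of conjugates into bile, was also above background on no array.

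Abcg2, the breast cancer resistance protein, which exports topotecan and mitoxantrone, was lower in GO2 by less than 2-fold. It measured 5.17 and 5.14 in ID8G and 4.46 and 4.45 in GO2. Replicates differed far less than the lines, and GO2 was 1.63-fold lower (-0.70, SE 0.05, adjusted p = 0.00203, limma). Over 17 alternative limma settings its difference ran from -0.91 to -0.62, with an adjusted p below 0.05 in all of them. Abcg2 thus had about the same difference as Abcc5, an exporter of cyclic nucleotides and antimetabolites, at 3.20 and 3.19 in ID8G and 2.50 and 2.52 in GO2 (-0.68, SE 0.05, adjusted p = 0.00216). Of the 5 Abcc5 probes, 4 lay between -0.68 and -0.64 and the other at 0.03 (adjusted p = 0.688), so the probes disagreed. That probe was dimmer than the 4 but above background on every array, and it is assigned to a different RefSeq transcript of the gene.

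Abcc10, which transports taxanes and nucleoside analogs, had the largest difference of the group. It measured 0.15 and 0.26 in ID8G and -0.68 and -0.52 in GO2, a 1.75-fold difference (-0.81, SE 0.08, adjusted p = 0.00498, limma). It was called only under spike-in scaling, at -1.02, where the median of all genes was itself lower. Abcc1, the multidrug resistance protein that exports glutathione conjugates, was 1.53 and 1.60 in ID8G and 1.12 and 1.06 in GO2 (-0.48, SE 0.06, adjusted p = 0.00779). With no filter on dim probes its adjusted p was not below 0.05. Its groups did not overlap, as in 25 of the 30 tested members, and GO2 was 1.40-fold lower. Abcc3, which exports glucuronides and bile salts, went the other way, from 0.67 and 0.62 to 1.15 and 1.12 (0.49, SE 0.05, adjusted p = 0.00581, limma). With no filter on dim probes or with spike-in scaling, the adjusted p of Abcc3 was not below 0.05. Abcc4, an exporter of cyclic nucleotides and prostaglandins, differed by -0.05, with an interval from -0.24 to 0.13. At an adjusted p below 0.05 and any size, the group thus held 4 lower genes and 1 higher of 7, where 18.9% of all tested genes were lower and 17.5% higher.

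The genes that supply glutathione and conjugates to these exporters showed no call either. Of 10 such genes 9 were tested, with a median difference of -0.15. Gsta4, a transferase for lipid aldehydes, differed by -0.55 (adjusted p = 0.00410, limma), and Gsr, which regenerates reduced glutathione, by -0.47 (adjusted p = 0.00568). Gclm, the regulatory subunit of the enzyme that starts glutathione synthesis, differed by 0.45 (adjusted p = 0.00643). Among the regulators of exporter genes, the receptor Ahr differed by -0.36 (adjusted p = 0.0219). Nfe2l2, the regulator of the antioxidant response, differed by -0.31 (adjusted p = 0.0307). Both were lower in GO2 without a call.

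The peptide transporter of the family was called higher. Abcb9, which carries peptides into lysosomes, was -2.55 and -2.49 in ID8G and -1.55 and -1.46 in GO2. Replicates were close, and GO2 was 2.02-fold higher (1.01, SE 0.06, adjusted p = 0.00137, limma). Because 1.01 lies just above the 2-fold limit, the call was lost where the difference dipped below it: 0.97 without GO2 replicate 2, 0.98 without ID8G replicate 1 and 0.75 with normexp correction, for example. The adjusted p stayed below 0.05 in all 17 alternative limma settings.

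Tap1 and Tap2, which the symbol rule does not take in, are the ABC half-transporters that bring antigenic peptides into the endoplasmic reticulum for MHC class I. Tap2 measured -0.37 and -0.26 in ID8G and 0.93 and 1.01 in GO2, and it rose 2.44-fold (1.28, SE 0.07, adjusted p = 0.00101, limma). Tap1 measured -2.63 and -2.50 in ID8G and -1.88 and -1.75 in GO2, higher without a call (0.75, SE 0.08, adjusted p = 0.00556). Both therefore lay above their ID8G levels on each GO2 array. Tapbp, tapasin, which bridges TAP and class I molecules, differed by -0.06 (adjusted p = 0.454). Cftr, the ABC protein that works as a chloride channel, measured 0.04 and 0.03 in ID8G and -2.21 and -2.35 in GO2. It fell 4.98-fold (-2.32, SE 0.07, adjusted p = 0.000314, limma), and the call held in all 17 alternative limma settings. For Cftr, Tap1 and Tap2, a second probe of each was above background on no array.

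All 4 mitochondrial genes were tested and none was called, with a median difference of -0.36. Abcb8, linked to iron export from mitochondria, measured 3.13 and 3.15 in ID8G and 2.48 and 2.51 in GO2 (-0.65, SE 0.05, adjusted p = 0.00259, limma), and its second tested probe gave -0.54. Abcb10, needed for heme synthesis, differed by -0.38 (adjusted p = 0.0350, limma). With no filter on dim probes its adjusted p was not below 0.05. Abcb6, a porphyrin transporter, differed by 0.13 (adjusted p = 0.139).

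In the ABCD subfamily 3 of 4 genes were tested. None was called. Abcd3, a peroxisomal importer of branched-chain and bile acid precursors, differed by -0.05 with an interval from -0.20 to 0.09 (limma). Abcd4, which helps release vitamin B12 from lysosomes, differed by -0.02 with an interval from -0.19 to 0.15. For both genes the interval left no room for a 2-fold difference. Abcd2 was above background on no array. Of their partners in peroxisome membrane assembly, Pex19 differed by 0.25 (adjusted p = 0.0295) and Pex3 by -0.39 (adjusted p = 0.0589). The second probe of Pex19 gave 0.21 (adjusted p = 0.103) and that of Pex3 gave -0.57 (adjusted p = 0.0488).

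The soluble members showed small differences between the lines. Abce1, which recycles ribosomes, differed by 0.18 (SE 0.06, adjusted p = 0.101, limma), Abcf1, which assists translation initiation, by 0.06 (adjusted p = 0.465), Abcf2 by -0.14 (adjusted p = 0.204) and Abcf3 by 0.06 (adjusted p = 0.427). The 5 Abcf1 probes ranged from 0.06 to 0.18. All 4 intervals excluded a 2-fold difference in either direction, the widest reaching from -0.35 for Abcf2 to 0.36 for Abce1. Pelo and Hbs1l, the ribosome rescue factors that act with Abce1, differed by -0.01 and 0.04.

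The channel regulators left little to measure. Abcc8 and Abcc9, the sulfonylurea receptors of potassium channels, were above background on no array, and Abcc6, mutated in pseudoxanthoma elasticum, passed on 1 array of each line, too few to be tested. Kcnj8, the channel pore that pairs with Abcc9, measured -2.87 and -1.62 in ID8G and was below background in GO2 at -5.52 and -5.77, at least 2.97-fold lower. The fit gave an adjusted p of 0.00925 (limma) on GO2 signals below background. With those signals raised to a floor, which gives that bound, the adjusted p was 0.0510, and the call was also lost with no filter on dim probes (0.0527), without GO2 replicate 1 (0.0544) and without GO2 replicate 2 (0.0596). Of the remaining matches of the rule, Abca17, a neighbor of Abca3 on chromosome 17, differed by 0.46 (SE 0.11, adjusted p = 0.0407, limma). Its adjusted p was not below 0.05 with no filter on dim probes, with spike-in scaling or with the replicate number as a block. Abca14, Abca15, Abca16, Abcb5 and Abcg3 were above background on no array. Over the whole family 18 of the 19 untested genes were so, with levels of their probes, Abcc6 included, between -6.18 and -2.75.

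Genes that act with Abca1 in sterol handling were examined as a list of 11, of which 10 were tested. Pltp, which moves phospholipid between lipoproteins, was -5.84 and -5.80 in ID8G, below background, and -0.26 and -0.29 in GO2, at least 10.6-fold higher (adjusted p = 0.000182, limma). Lrp1, an endocytic receptor for apolipoprotein E, rose 2.06-fold, from 1.33 and 1.22 to 2.28 and 2.36 (1.05, SE 0.07, adjusted p = 0.00155). Its call was lost without ID8G replicate 2 (0.990), with normexp correction (0.993) and with spike-in scaling (0.84). These 2 were the genes called in the list, both higher, where 4.78% of all tested genes were called higher, and the median difference was 0.35. Scarb1, the receptor for high-density lipoprotein, differed by 0.76, Cav1 by 0.89 and Npc1, which moves cholesterol out of lysosomes, by 0.56, all higher without a call. Npc2 was lower without a call (-0.34, adjusted p = 0.0180, limma). On the lower side were also Apoe at -0.70, Lcat, which esterifies cholesterol in lipoproteins, at -0.88 and Soat1, which esterifies it inside cells, at -0.75. The 4 Soat1 probes ran from -0.92 to -0.75. Lcat was above background on only 1 GO2 array. Its difference ran from -1.09 to -0.36 over the alternative limma settings, with -1.03 without GO2 replicate 2 and -1.02 without ID8G replicate 1. With no filter on dim probes the adjusted p of Lcat was not below 0.05.

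**Figure D3:**
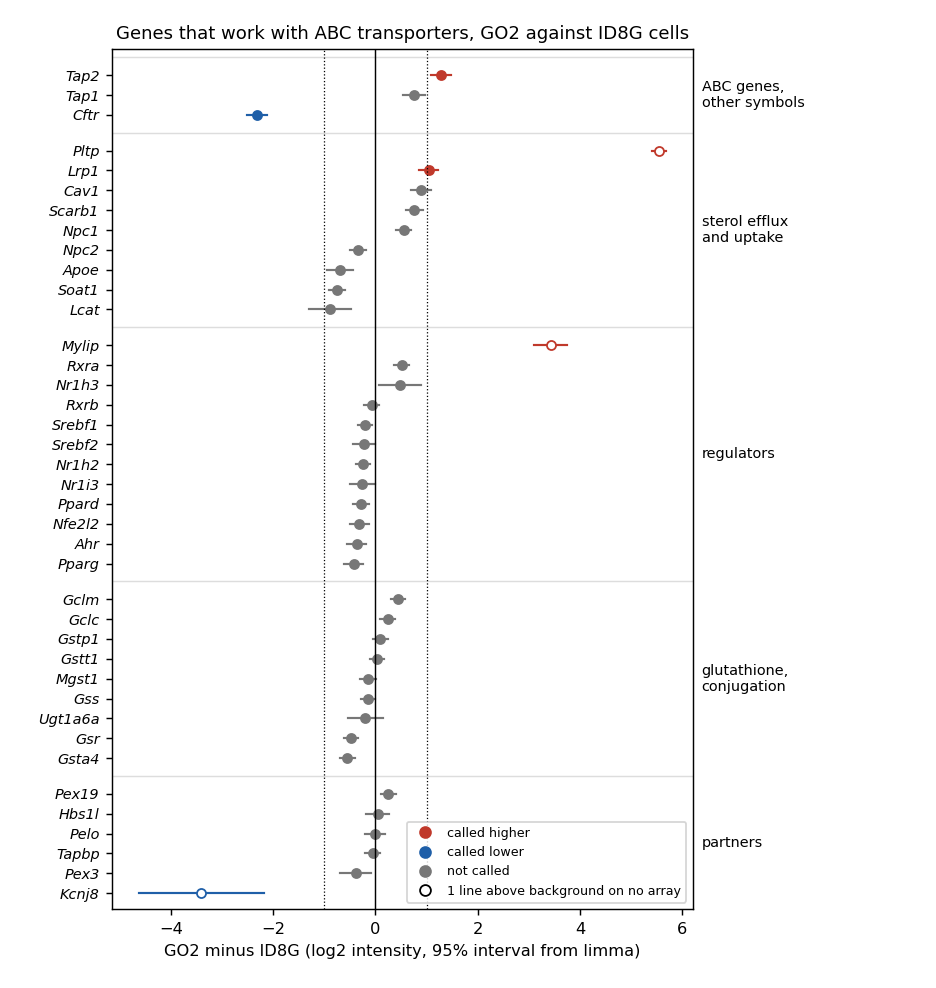
Differences between GO2 and ID8G cells for tested genes of 5 lists that work with ABC transporters, on the log2 scale with the 95% interval from limma and dotted lines at 2-fold. Pltp, Mylip, Tap2 and Lrp1 were called higher and Kcnj8 and Cftr lower; open points mark genes with 1 line above background on no array.

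Of 14 transcriptional regulators and related genes 12 were tested and 1 was called higher, where 4.78% of all tested genes were called higher. Mylip, a ubiquitin ligase, was below background in ID8G at -5.80 and -6.08. In GO2 it was above background at -2.58 and -2.44, at least 2.24-fold higher (adjusted p = 0.000414, limma). Srebf1, a regulator of lipid synthesis, differed by -0.20 (adjusted p = 0.0429). The liver X receptors were not called. Nr1h2 (LXR beta) differed by -0.25 (adjusted p = 0.0273, limma) on its brightest probe and by -0.10 (adjusted p = 0.450) on its second. Nr1h3 (LXR alpha) differed by 0.48 (adjusted p = 0.0701) on its brightest probe and by 0.22 (adjusted p = 0.0406) on its second. Their partner Rxra differed by 0.52 (adjusted p = 0.00515) on its brightest probe and by -0.42 (adjusted p = 0.0685) on its second. The Rxra probes therefore disagreed, and their mean differed by 0.05. Pparg, which acts upstream of LXR in macrophages, differed by -0.42 (adjusted p = 0.0151). The median of the list was -0.23. With 1 probe per gene, 6 of the 12 were lower and 2 higher at an adjusted p below 0.05 and any size, against 18.9% and 17.5% of all tested genes.

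How far the called members and the main exporters depended on the analysis is shown gene by gene over 18 alternatives. Abca1 kept a 2-fold difference wherever it could be tested with limma, and the exporters Abcg2, Abcc5 and Abcc1 were lower in each alternative. The methods' t-test, a two-tailed unpaired test with Welch's correction on the same values, called none of the 30 members after adjustment and 3 of all tested genes, all lower. At an unadjusted p below 0.05 that test gave 4 members higher and 7 lower, and limma 8 and 11.

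**Figure D4:**
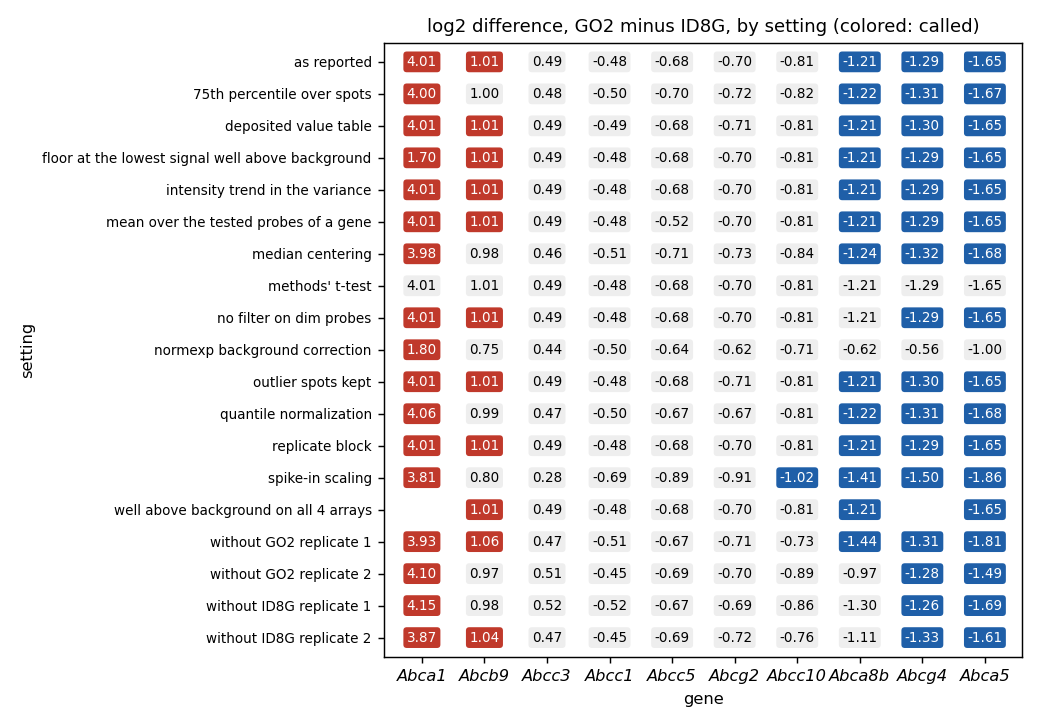
Log2 difference of 10 ABC genes (columns) as reported and under 18 alternative settings (rows), colored where the gene was called and blank where it was not tested. Abca1 was called in every limma setting that tested it, and normexp background correction left Abca1 as the 1 gene called.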

How the data were processed

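RNA of 2 ID8G and 2 GO2 samples was extracted with TRIzol, labeled with Cy3 and hybridized to SurePrint G3 Mouse arrays by the authors, and Agilent Feature Extraction 11.5.1.1 gave the deposited intensity values (gProcessedSignal), which are background-subtracted and not normalized between arrays. The authors also deposited a table of log2 values, centered per probe, which was used for 1 alternative only. Spots marked as outliers were left out, spots of a probe were averaged, and the log2 intensity was set against the 75th percentile of each array's 56605 probes. RefSeq accessions (GRCm38.p6; the array design is on mm9) named 32994 probes (58.3%). The 28368 probes that passed well above background on each array of 1 line or the other entered limma 3.58.1 in R 4.3.3 (lmFit, eBayes), with Benjamini-Hochberg adjustment over all of them, and the code was tested on simulated data. The tested probe with the highest mean stands for a gene. Named genes were every called member, the 3 brightest and the 3 most different of each role, Abcb1a, Abcb1b, Abcc1 and Abcg2, and from the pathway lists those called and up to 3 more; any further gene was picked with its values in view. The members and lists were chosen with earlier results of these data known. All arrays lay on 1 slide and were scanned once, so no batch could be fitted. The number of arrays limits the precision. Alternatives changed the background correction (normexp, offset 50), scaling, filter, floor, variance trend, test, probe choice, outlier spots, replicate block and replicates. Some members and list genes enter the counts but are not reported here by name. Promoters were read from RefSeq, which held 37 of the 49 members.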

Additional observations from a re-analysis of the deposited data

How the results depend on the processing

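Members called higher, 2 as reported, were 1 with normexp background correction, quantile normalization, median centering, spike-in scaling, the 75th percentile taken over spots (an alternative chosen after seeing the data) and the filter for probes above background on all 4 arrays. Abcb9 was the gene lost in each except the last, which left out Abca1. Leaving out 1 replicate gave 1 to 2, with Abcb9 lost without GO2 replicate 2 and without ID8G replicate 1. Members called lower, 3 as reported, were 0 with normexp correction and 4 with spike-in scaling, which added Abcc10, and leaving out 1 replicate gave 2 to 3. The methods' t-test gave 0 in both directions, with an adjusted p of 0.124 for Abca1. The family's median difference of -0.035 was -0.065 with median centering, -0.243 with spike-in scaling and -0.075 to -0.031 with 1 replicate left out. Replicate numbers did not pair the arrays (correlation of same-number deviations 0.027), and with the replicate number as a block the calls stayed 2 and 3 in number and the median -0.035. Over all genes, 1055 were called higher and 772 lower, against 687 and 445 with normexp and 564 and 500 with the filter for all 4 arrays. Of 538 values of single members over the alternatives, 518 stayed on their side of the criteria in the same direction or uncalled, 19 lost a call, 1 gained one and none reversed a call, with 15 uncalled changes of sign. With 1 array left in a line, that array was assumed to vary like those of the other line. Slide as a block was not run, since 1 slide was used. Causes were not tested, and genes near background, Abca1 in ID8G and Abcg4 in GO2 among them, have only bounds.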
